A study of Mus musculus with 37 samples.

Results

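TRBV19 is one of the variable (V) segments from which the beta chain of the mouse T cell receptor is assembled. Every clonotype row whose best V segment was TRBV19 was taken from the 37 clonotype tables, which gave 144233 of 1704980 rows and 4717902 of 47131913 reads. A row is 1 nucleotide sequence of the third complementarity-determining region (CDR3) with its V and joining (J) segments. The libraries were made from lymph node genomic DNA, 1 library per mouse, so they count rearranged genes and not RNA.

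The 37 mice formed 9 groups. 32 were MMTV-PyMT females, in which the polyoma middle T antigen is driven by the mouse mammary tumour virus promoter, and 5 were FVBN mice of the label WTNT, taken at d105. At d105 the MMTV-PyMT groups were PLX+PTX+aPD-1_R (n = 6), PLX+PTX+aPD-1_NR (n = 4), PLX+PTX (n = 6) and PTX (n = 2). At d95 they were the same 4 groups with 5, 3, 3 and 3 mice. PLX is PLX3397 (pexidartinib), an inhibitor of the CSF1 receptor, given in chow at 40 mg/kg per day from 80 days of age. PTX, the chemotherapy, was injected at 10 mg/kg every 5 days from 85 days of age, and all 32 MMTV-PyMT mice had it by their labels. aPD-1 is the antibody RMP1-14 against PD-1, of which mice had a dose of 1 mg at 87 days of age and of 0.5 mg at 5-day steps after it. No PLX, PTX or aPD-1 is listed for the WTNT mice. The protocol also names control chow and an isotype antibody without saying which groups received them. R, NR and WTNT are not spelled out in the labels, and the groups are called here by those labels.

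A beta chain gene is made in the thymus by joining a V, a D and a J segment, with bases trimmed and added at the joints. The CDR3 spans these joints and is the part of the chain that contacts the peptide held by an MHC molecule. TRBV19 encodes the segment long known as Vβ6. Superantigens bind the V-encoded face of the chain irrespective of the CDR3, and the superantigen of the endogenous mouse mammary tumour provirus Mtv-7 acts on T cells with Vβ6. Mucosal-associated invariant T (MAIT) cells, which recognise vitamin B metabolites on MR1, pair an invariant alpha chain mostly with Vβ6 or Vβ8 chains in mice. Alpha chains were not read in these libraries, so no TRBV19 row could be assigned to a MAIT cell, and no superantigen was measured. Both names in the usual description of this segment therefore rest on background knowledge.

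The sequences below show what a TRBV19 CDR3 looks like at the DNA level, because they hold the V end and the bases between V and J to which the results on length, residues and sharing refer. The untrimmed V end comes first, followed by the 3 most widespread nucleotide forms of the clonotype found in all 37 libraries, by the most widespread form of the next clonotype, and by the most widespread form of each other clonotype called between days. Bases between the V and J parts are in capitals.

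TRBV19 end: tgtgccagcagtatag
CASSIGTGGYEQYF, form in 30 libraries: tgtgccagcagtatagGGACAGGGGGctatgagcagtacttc
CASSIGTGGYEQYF, form in 23 libraries: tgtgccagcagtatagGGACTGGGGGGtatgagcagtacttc
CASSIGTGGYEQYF, form in 18 libraries: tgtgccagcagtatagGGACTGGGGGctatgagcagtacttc
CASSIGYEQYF, form in 27 libraries: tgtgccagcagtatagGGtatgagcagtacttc
CASST clonotype with TRBJ2-7, form in 10 libraries: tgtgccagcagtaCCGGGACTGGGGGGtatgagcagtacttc
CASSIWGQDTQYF, form in 18 libraries: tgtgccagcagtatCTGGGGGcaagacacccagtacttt

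The V end of 16 bases was carried by 12343 of the 12661 rows with no trimmed V base (97.5%). It encodes CASS and an isoleucine codon and ends 1 base later. The first form of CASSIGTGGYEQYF holds bases assigned to TRBD1, and the other two forms hold bases assigned to TRBD2, while all end in TRBJ2-7. The short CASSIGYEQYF has 2 bases between V and J and no assigned D segment.

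Total reads per library ranged from 1090573 to 2831566 at d105 and from 90648 to 917752 at d95. These ranges did not overlap, so the 2 days and their sequencing yield cannot be told apart. The d95 PLX+PTX+aPD-1_NR replicate 1 was the shallowest library, with 90648 reads and 237 TRBV19 rows against 1198 to 2757 in the other d95 libraries. WTNT replicates 2 and 5 shared 284 nucleotide CDR3s under TRBV19, 4.27% of the geometric mean of their row numbers, while the median over all 666 library pairs was 1.78% and the next highest pair had 3.02%. They also shared 14 of their 100 largest TRBV19 rows, where the median pair shared 2. The comparison of the segment's share between MMTV-PyMT and WTNT mice is therefore also given without each. Read intervals cover counting error only, since the tables give reads without molecular identifiers. The p-values between groups set a difference against the spread between mice. Those of TRBV19 against other V segments rest on differences within each library.

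Shares are given as percent of the authors' normalized clone count, a score equal to the read count times a constant factor for each V and J pair. For TRBV19 that factor lay between 0.207 with TRBJ1-2 and 10.6 with TRBJ1-4, so a read of the latter pair weighs far more. TRBV19 held 4.42% ± 1.04 of the normalized count (SD, n = 37), the eighth of the 12 TRBV segments with a mean of at least 0.1%. By reads it held 9.86% ± 1.23 at d105 (n = 23) and 11.3% ± 1.46 at d95 (n = 14). The 2 scales therefore give different levels for the segment, and comparisons between groups below are on the normalized scale unless reads are named.

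At d105 the PLX+PTX+aPD-1_R mice ranged from 2.73% to 4.79% with a median of 3.45%. The 4 PLX+PTX+aPD-1_NR mice had 3.56%, 4.92%, 4.58% and 4.86%. The PLX+PTX mice ranged from 2.67% to 4.22% with a median of 3.60%. In the d105 groups without aPD-1 and in the 5 WTNT mice all values lay at or below 4.22%. The 2 PTX mice had 3.55% and 4.21%, and the WTNT mice had 3.89%, 4.09%, 4.07%, 3.801% and 3.73%. WTNT had the narrowest spread, with a mean of 3.92% ± 0.16 (SD, n = 5).

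At d95 the PLX+PTX+aPD-1_R mice had 4.08%, 5.12%, 5.13%, 4.24% and 5.57%. The PLX+PTX+aPD-1_NR mice had 7.31%, 5.71% and 5.41%, the first being the shallow library. PLX+PTX mice had 4.76%, 4.63% and 5.41%, and PTX mice had 6.14%, 6.17% and 5.71%. The 3 PTX mice and 2 of the 3 NR mice of d95 had the highest values of the series, while the other NR mouse lay within the range of the d95 R mice. Each d95 group mean lay above each d105 group mean. In the order of the 9 group means, from d105 PLX+PTX (3.57% ± 0.56) to d95 PLX+PTX+aPD-1_NR (6.14% ± 1.02), a single step between neighbours was larger than the larger SD with no overlap, that from d95 PLX+PTX (4.93% ± 0.42) to d95 PTX (6.01% ± 0.26). All other neighbours overlapped. Whether other segments separate at the same step was not counted.

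**Figure D1:**
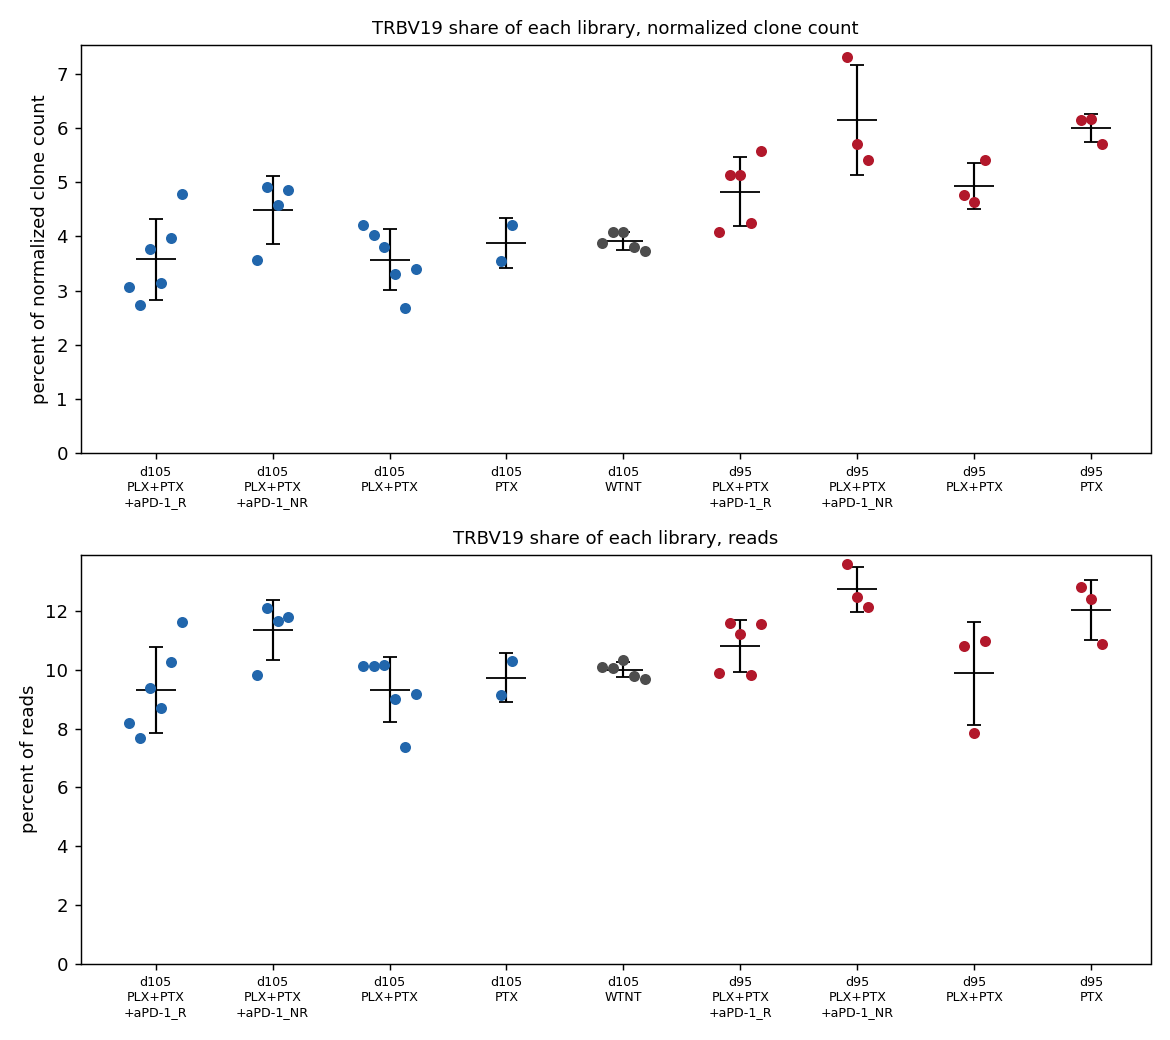
TRBV19 as percent of the normalized clone count (vertical axis) in each of the 9 groups (horizontal axis), with 1 dot per library, a bar at the mean and an error bar of 1 SD. The d95 groups have means of 4.83% to 6.14% and the d105 groups of 3.57% to 4.48%, and NR lies above R at both days with overlapping dots.

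The R and NR groups had the same treatment and differ by their label, so their comparison asks what accompanies that label. TRBV19 was lower in R than in NR at both days. At d105 the means were 3.58% ± 0.75 (n = 6) and 4.48% ± 0.63 (n = 4), a log2 difference of -0.34 (SE 0.14), and at d95 they were 4.83% ± 0.64 (n = 5) and 6.14% ± 1.02 (n = 3), a log2 difference of -0.34 (SE 0.12). Neither day alone passed the test, with adjusted p-values of 0.178 and 0.381 (limma, Benjamini-Hochberg over 24 TRBV and TRBJ segments). None of the 24 segments passed at either day (0%), while 6 at d105 and 1 at d95 had an unadjusted p under 0.05, and edgeR and DESeq2 on reads called 0 at both days as well. The ranges of R and NR overlapped at each day.

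Averaged over both days in 1 limma fit, TRBV19 was lower in R by a log2 difference of -0.34 (SE 0.11), with an adjusted p of 0.0451. It was 1 of 2 segments called of 24 (8.33%) and the 1 called as lower (4.17%). The other was TRBV5, higher in R by 0.20 (adjusted p 0.0451). The difference between the days in this effect was 0.01 (SE 0.21), with an adjusted p of 0.982. The call was lost with reads in place of normalized counts (log2 difference -0.27, limma adjusted p 0.0865), with each clonotype counted once (-0.19, 0.148) and in 14 of the 18 fits that left out 1 R or NR library. It was kept with edgeR (-0.28, adjusted p 0.0455) and DESeq2 (-0.28, adjusted p 0.0226) on reads. Without the shallow d95 NR replicate 1 the log2 difference was -0.28, with a limma adjusted p of 0.437, and that of d95 alone was -0.21 (limma adjusted p 0.950). Over all libraries left out in turn, the d95 difference ran from -0.43 to -0.21 and was called in none.

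At d95 the TRBV19 share fell with library depth over the 14 libraries, with Pearson r = -0.67 (permutation p = 0.0113, adjusted over 2 days 0.0226) and Spearman rho = -0.45 (permutation p = 0.109, adjusted 0.219). Without the 2 libraries farthest from the median depth, r was -0.38, so its size depends on those libraries. At d105 r was -0.15 (permutation p = 0.504, adjusted 0.504) and rho was -0.23 (permutation p = 0.298, adjusted 0.298) over 23 libraries. Without the 2 d105 libraries farthest from the median depth, r was -0.35. Neither of these values without 2 libraries was tested. The d95 NR libraries held 90648 to 559102 reads and the d95 R libraries 432954 to 917752. The part of depth in the R and NR difference was not tested. A lower share can be fewer T cells with TRBV19 or more of the others, which bulk DNA cannot tell apart.

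The mice labelled R and NR at d105 came from 2 ranges of mouse numbers, and all 4 NR mice from the higher range. Within the higher range, which held 4 of the 6 R mice, the d105 log2 difference between R and NR was -0.20, with a limma adjusted p of 0.405. The d105 difference passed the test in 2 of the 10 fits that left out 1 R or NR library. These were without NR replicate 1 (log2 difference -0.44, limma adjusted p 0.0367) and without R replicate 6 (-0.43, 0.0413). They are the lowest NR mouse (3.56%) and the highest R mouse (4.79%), so leaving either out widens the difference and adds no support. Over the 10 fits the limma adjusted p ran from 0.0367 to 0.456.

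The direction was shared by the J segments paired with TRBV19. As a share of the library, all 11 TRBV19 pairs tested were lower in R than in NR at d105, with a median log2 difference of -0.33 against -0.02 over all 132 pairs. At d95 10 of 11 were lower, with a median of -0.38 against 0.01 over 130 pairs. No pair passed the limma test at either day (0%), and 6 TRBV19 pairs at d105 and 2 at d95 had an unadjusted p under 0.05. The pairs share the same libraries and are not independent of the segment's own share. Within TRBV19 the J composition showed no such shift: 0 of 11 pairs were called in R against NR at either day by limma (0% of all pairs), and 0 had an unadjusted p under 0.05.

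Adding aPD-1 to PLX+PTX, adding PLX to PTX, and MMTV-PyMT against WTNT gave no called difference in TRBV19. All MMTV-PyMT mice had PTX and the WTNT mice have no listed drug. Genotype and treatment therefore cannot be told apart in that last comparison. The limma log2 difference for aPD-1 was 0.16 at d105 (adjusted p 0.934) and 0.13 at d95 (adjusted p 0.319). For PLX it was -0.13 at d105 (adjusted p 0.917) and -0.29 at d95 (adjusted p 0.975). With 1 library left out, aPD-1 gave 0.08 to 0.21 at d105 and 0.07 to 0.20 at d95, and PLX gave -0.25 to -0.01 at d105 and -0.35 to -0.24 at d95, with no call. The d105 values for PLX rest on 2 PTX mice, and -0.01 is the value without PTX replicate 2. At d95 the PLX+PTX and PTX mice did not overlap in TRBV19 share, with 3 mice in each group. The smallest p an exact permutation test allows for such groups is 0.1. How many of the 24 segments also did not overlap was not counted, and none was called there (0%). MMTV-PyMT minus WTNT was -0.03 (limma adjusted p 0.899), and -0.02 and -0.05 without WTNT replicates 2 and 5. None of the 24 segments passed in any of these 5 comparisons (0% in each) by limma, where 0, 5, 2, 0 and 0 had an unadjusted p under 0.05. edgeR and DESeq2 on reads each called 2 segments for PLX at d105, DESeq2 called 6 for aPD-1 at d95, and they called 0 otherwise. Within TRBV19, no J pair was called for aPD-1, for MMTV-PyMT against WTNT, or for PLX at d105. For PLX at d105 limma called 1 of all 132 pairs (0.758%), and 1 of the 11 TRBV19 pairs had an unadjusted p under 0.05.

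TRBV19 was lower at d105 than at d95. In MMTV-PyMT mice the share was 3.81% ± 0.70 at d105 (2.67% to 4.92%, n = 18) and 5.39% ± 0.84 at d95 (4.08% to 7.31%, n = 14). The limma log2 difference was -0.50 (SE 0.08), with an adjusted p of 2.866e-06. 20 of the 24 segments were called between days (83.3%), 10 higher (41.7%) and 10 lower (41.7%), so TRBV19 was not unusual in being called. The difference was smaller by reads (-0.19, limma adjusted p 0.00928) and with each clonotype counted once (-0.15, limma adjusted p 0.0111), and was called in both. Treatment groups were weighted equally at each day. The mouse numbers of MMTV-PyMT mice did not overlap between days either, with 37582 to 37881 at d105 and 38843 to 38856 at d95. Age, day of treatment, range of mouse numbers and sequencing yield therefore cannot be told apart.

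The other segments on which superantigens act, or that MAIT cells use, were described by lists. Of the 4 segments of the Mtv-7 group, TRBV19 and TRBV29 (Vβ7) had shares large enough to test. TRBV13-3 (Vβ8.1) and TRBV17 (Vβ9) had mean shares of 0.00500% and 0.000126%. TRBV29 had 3.36% ± 0.29 (n = 37), and its d105 minus d95 log2 difference of 0.08 was not called (limma adjusted p 0.138). Between R and NR over both days, TRBV19 was called and TRBV29 was not. The MAIT list held TRBV19 and the 3 Vβ8 segments TRBV13-1, TRBV13-2 and TRBV13-3, whose mean shares were 0.00191%, 0.0310% and 0.00500%. TRBV19 was therefore the 1 segment of that list with a share large enough to test in these mice. The rare segments of these lists all belong to the 9 from TRBV12-1 to TRBV17, which together held 0.0534% of the normalized count. They are near absent from these libraries as a block, and the cause was not tested.

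The list of other superantigen targets held TRBV1 (Vβ2), TRBV26 (Vβ3), TRBV16 (Vβ11) and TRBV24 (Vβ17), of which 3 could be tested and TRBV16 had 0.000785%. Of these, TRBV1 and TRBV24 were lower at d105 than at d95, with log2 differences of -0.64 and -0.88, and TRBV26 was higher by 0.51. The list's median difference was -0.64, where the median over all 24 segments was 0.02. None of the 3 was called in R against NR over both days by limma.

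The segments most like TRBV19 across libraries, after removing each day's mean, were TRBV24 (r = 0.39 over 37 libraries), TRBV1 (r = 0.30) and TRBV23 (r = 0.15), out of 11 other segments. TRBV5 was least like it (r = -0.60, with -0.82 among the 23 d105 libraries and -0.54 among the 14 d95 libraries). These are descriptions, because all segments share each library's total and a rise of one lowers the others.

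TRBV19 differed from the other V segments in the same libraries in its J partners. For J partners, CDR3 length, residues and D-encoded runs the other V segments were pooled, and TRBV19 was not compared with each of them. With normalized counts TRBJ2-7 was the most frequent partner with 30.9% ± 7.39 of TRBV19 (SD, n = 37), followed by TRBJ2-5 with 13.1% ± 3.15, TRBJ2-1 with 11.8% ± 1.31 and TRBJ2-4 with 9.15% ± 1.82. TRBJ1-2 was rarer in TRBV19 than in the other V segments in all 37 libraries, with 1.01% against 2.43%. TRBJ1-6 was more frequent in all 37, with 5.85% against 3.38%. TRBJ2-3 was rarer in 29 of 37, with 7.39% against 7.91%. These 3 differences kept their direction by reads and with each clonotype counted once, and their adjusted p-values in the sign-permutation test over 37 libraries and 23 measures were 1.769e-05, 1.769e-05 and 0.000411, of which 1.769e-05 is the smallest the resamples can give.

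Other J partners depended on the scale. TRBJ1-4 was 7.13% of TRBV19 against 2.30% of other V segments by normalized counts, yet 0.555% against 2.43% by reads. TRBJ2-7 was 30.9% against 33.8% by normalized counts and 36.7% against 24.8% by reads. The factor of TRBV19 with TRBJ1-4 is the largest of its 12 pairs, and it was read from 5 rows of at least 50 reads, so a direction for TRBJ1-4 and TRBJ2-7 holds for a named scale alone.

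**Figure D2:**
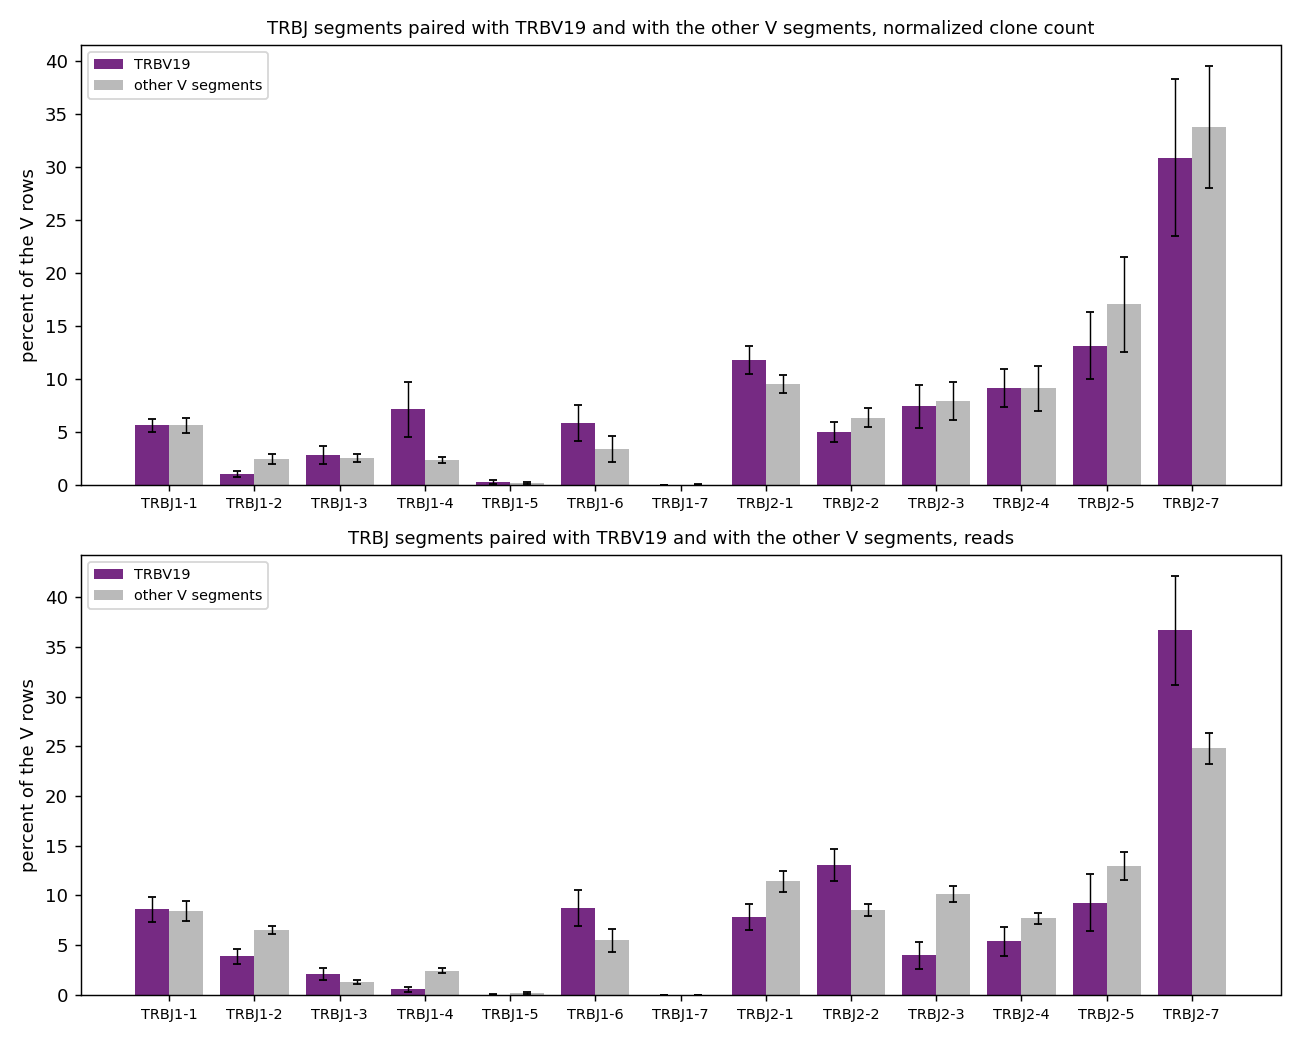
Percent of the rows of TRBV19 and of all other V segments (vertical axis) that carry each TRBJ segment (horizontal axis), weighted by normalized clone count in the upper panel and by reads in the lower one, as means over 37 libraries with error bars of 1 SD. TRBJ1-6 is higher and TRBJ1-2 lower in TRBV19 in both panels, while TRBJ2-7 is 30.9% against 33.8% above and 36.7% against 24.8% below.

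Between days the J composition of TRBV19 shifted. 9 of its 11 pairs tested were called by limma, where 95 of 130 pairs of all V segments were called (73.1%). TRBJ2-7 fell from 39.9% ± 1.68 of TRBV19 at d95 (n = 14) to 25.7% ± 2.20 at d105 (n = 18), a log2 difference of -0.62. TRBJ1-6 was also lower at d105, with 4.70% ± 0.54 against 7.89% ± 0.69. TRBJ1-2 and TRBJ2-2 were lower too, by log2 differences of -0.42 and -0.35. TRBJ2-5 was higher, with 15.4% ± 1.19 at d105 against 9.32% ± 0.62 at d95. TRBJ1-4 was 8.74% ± 1.28 against 4.19% ± 1.00, TRBJ2-3 was 8.65% ± 0.65 against 4.97% ± 0.43 and TRBJ2-4 was 10.5% ± 0.71 against 7.00% ± 0.65, all called as higher. TRBJ2-1 was higher by 0.16, and TRBJ1-1 (0.11, limma adjusted p 0.0516) and TRBJ1-3 (-0.19, limma adjusted p 0.208) were not called.

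The J shift between days was far smaller when each clonotype counted once. TRBJ2-7 then made up 22.5% ± 0.75 of TRBV19 rows at d105 and 23.9% ± 1.11 at d95, and TRBJ2-5 made up 14.9% and 14.6%. By reads TRBJ2-7 was 32.9% and 43.2%. The day difference in TRBJ2-7 therefore lay mostly in the counts per clonotype and less in the number of clonotypes. In the other V segments TRBJ2-7 was 29.8% at d105 and 40.8% at d95 by normalized counts, but 24.5% and 25.7% by reads. TRBJ1-4, which was higher at d105 in TRBV19, was 2.19% at d105 and 2.48% at d95 in the others. Whether the day difference itself differed between TRBV19 and the others was not tested.

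TRBV19 CDR3s were shorter on average than those of the other V segments pooled. The mean length weighted by normalized count was 13.58 residues ± 0.06 for TRBV19 and 13.78 ± 0.03 for the other V segments (n = 37), and it was lower in all 37 libraries (mean difference -0.206, sign-permutation adjusted p 1.769e-05). Lengths of 13 made up 26.8% of TRBV19 and 22.9% of the others, lengths of 14 made up 30.3% and 30.6%, and lengths of 15 made up 17.7% and 20.9%. The TRBV19 distribution thus had more at 13 residues and less at 15 and 16, where it held 4.82% against 6.92%.

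**Figure D3:**
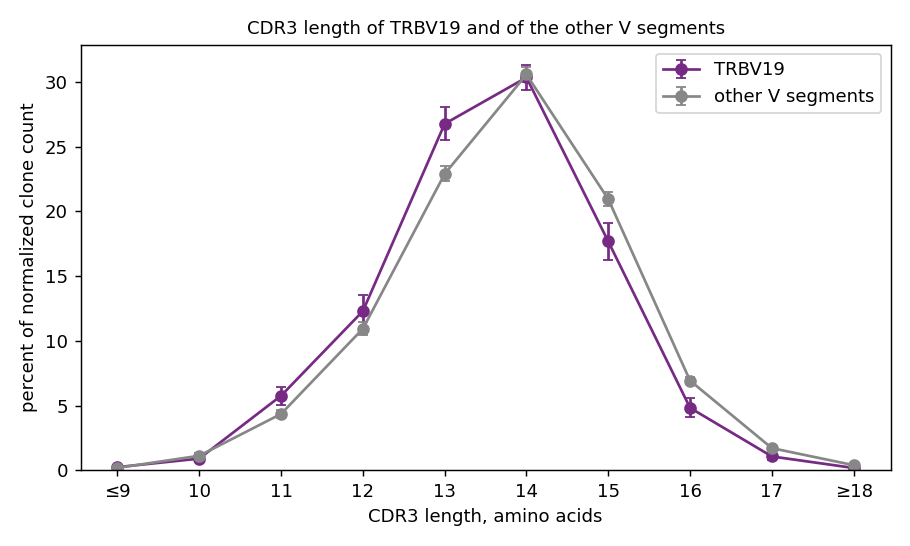
Percent of normalized clone count (vertical axis) by CDR3 length in amino acids (horizontal axis) for TRBV19 and for all other V segments, as means over 37 libraries with error bars of 1 SD. TRBV19 is higher at 13 residues (26.8% against 22.9%) and lower at 15 (17.7% against 20.9%).

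The residues between the first 4 and the last 4 of the CDR3 carried the V end. Isoleucine made up 7.42% of these residues in TRBV19 and 0.615% in other V segments, and methionine 1.65% and 0.149%. Asparagine was also more frequent, with 7.27% against 6.09%. Leucine (3.09% against 6.57%), glutamine (4.88% against 9.09%) and aspartate (6.78% against 8.57%) were less frequent. The mean Kyte-Doolittle hydropathy was -0.79 ± 0.07 in TRBV19 and -1.11 ± 0.04 in the others, and the mean net charge was -0.18 ± 0.07 and -0.33 ± 0.05. Both were higher in all 37 libraries (sign-permutation adjusted p 1.769e-05 for each), by normalized counts, by reads and with each clonotype counted once.

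CASSI was the most frequent start, with 37.7% ± 1.28 of the normalized count of TRBV19. CASSM followed with 8.32%, CASSR with 7.85%, CASSP with 7.13% and CASST with 4.44%. The start CASSI is what the untrimmed V end tgtgccagcagtatag encodes. Rows with 0 trimmed V bases held 9.14% of the normalized count, and untrimmed rows whose V part extends past that end held a further 2.57%. The most frequent trims were 2 bases (23.4%), 4 bases (18.04%) and 5 bases (17.8%). TRBD1 was assigned to 41.4%, TRBD2 to 35.3%, and none to 23.3%. Of the rows with a TRBJ1 segment, 7.32% carried TRBD2, which lies downstream of the TRBJ1 cluster in the locus, and D assignments of few bases are uncertain to that degree at least.

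Short D-encoded runs gave mixed results. GLG occurred in 3.10% of TRBV19 and 3.77% of other V segments, lower in all 37 libraries (sign-permutation adjusted p 1.769e-05). By reads this difference was -0.08 percentage points, with an adjusted p of 0.246. DRG and GQG were less frequent in TRBV19 by 0.285 and 0.258 percentage points (differences of -0.285 and -0.258). GTG occurred in 6.23% and 6.30% (sign-permutation adjusted p 0.617) and DWG in 5.36% and 5.19% (adjusted p 0.183), with no call for either. By reads GTG was more frequent in TRBV19 and with each clonotype counted once less frequent, and DWG was more frequent on both, all with a call.

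Most receptors were found in 1 mouse, with TRBV19 as with the other V segments. Taken as amino acid clonotypes (same J and same CDR3), 72847 of 90133 were found in 1 library (80.8%, against 80.2% of those of other V segments), 9037 in 2 and 3214 in 3. Those found in at least 50% of the libraries, called public here, numbered 165, which is 0.183% of TRBV19 clonotypes against 0.262% (2389 of 911925) of those of other V segments. The share differed among single V segments. It was 0.471% in TRBV1 and 0.364% in TRBV5, and it was below that of TRBV19 in TRBV4 (0.134%), TRBV26 (0.0867%), TRBV20 (0.0632%) and TRBV29 (0.0589%). Of the TRBV19 clonotypes, 5 were found in at least 80% of libraries and 1 in all 37. Public clonotypes held 5.83% ± 0.84 of the TRBV19 normalized count and 9.37% ± 1.28 of that of other V segments, lower for TRBV19 in all 37 libraries (sign-permutation adjusted p 1.769e-05). That comparison is with the other segments pooled, and not with each.

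The public TRBV19 clonotypes carried simple joints, which is described here with no test because the same libraries chose them. They had 7.05 ± 0.36 bases between V and J, against 11.7 ± 0.15 in clonotypes found in 1 library. Bases not assigned to V, D or J numbered 1.56 ± 0.10 and 4.63 ± 0.09, and trimmed V bases 1.70 ± 0.16 and 3.50 ± 0.07. CASSI opened 131 of the 165 public clonotypes, and 80.7% of public rows began with it against 28.3% of rows found in 1 library. Public rows had 44.0 reads on average and rows found in 1 library 30.1. TRBJ2-7 was the partner of 56, TRBJ2-5 of 28, TRBJ2-1 of 22 and TRBJ2-3 of 17. A public clonotype was encoded by a median of 13 nucleotide forms over the series, where 81.7% of all TRBV19 clonotypes had 1 form.

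**Figure D4:**
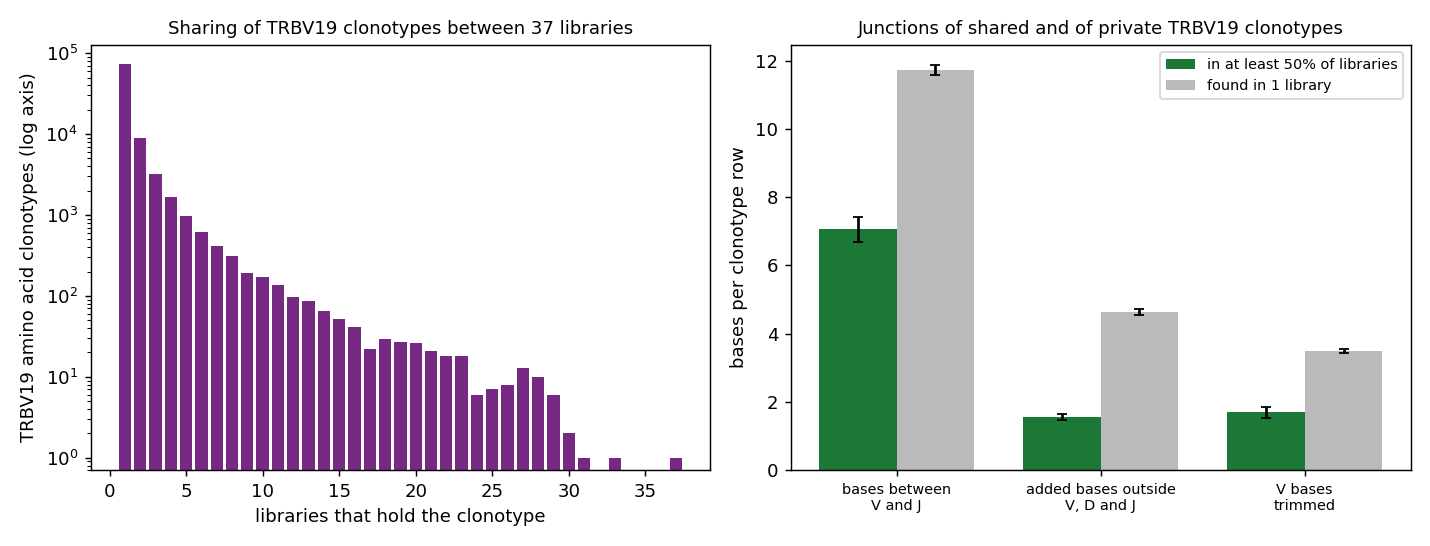
Left, number of TRBV19 amino acid clonotypes (vertical axis, log scale) by the number of libraries in which they were found (horizontal axis), which drops from 72847 in 1 library to 3214 in 3. Right, bases per clonotype row for 3 joint features of clonotypes in at least 50% of libraries and of those found in 1 library, as means over 37 libraries with error bars of 1 SD, such as 7.05 against 11.7 bases between V and J.

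The clonotype found in all 37 libraries was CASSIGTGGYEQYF with TRBJ2-7, made by 26 nucleotide forms and 14686 reads in all. Its most widespread forms, printed above, keep the whole V end and join it to D-like bases that read alike whether they come from TRBD1 or TRBD2. The next were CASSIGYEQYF (33 libraries, 13 forms), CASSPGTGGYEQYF (31 libraries, 15 forms), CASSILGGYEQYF (30 libraries, 17 forms) and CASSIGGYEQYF (30 libraries, 20 forms), all with TRBJ2-7. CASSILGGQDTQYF with TRBJ2-5 had 25 forms in 29 libraries. Each of these clonotypes was found in mice of most groups, WTNT included.

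No TRBV19 clonotype was called within a day. At d105, limma tested 319 TRBV19 clonotypes among 5242 found in at least 50% of the 23 libraries, and 0 of the 5242 were called in any of the 4 comparisons (0% in each), where 11 to 25 of the 319 had an unadjusted p under 0.05. At d95 it tested 72 among 964, of which R against NR called 2 (0.207%), aPD-1 called 0 (0%) and PLX called 1 (0.104%), none of them in TRBV19, where 2 or 3 of the 72 had an unadjusted p under 0.05. The smallest unadjusted p among TRBV19 clonotypes for R against NR at d105 was 0.000444, for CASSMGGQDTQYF, with a limma adjusted p of 0.645.

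Between days 3 of 154 TRBV19 clonotypes were called, where 125 of all 2394 were (5.22%), so the share in TRBV19 was not above that of all clonotypes. Of the 125, 115 were higher at d105 (4.8% of all tested) and 10 were lower (0.418%). In CPM, the normalized count scaled to a library total of 1000000, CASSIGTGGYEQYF had 83.6 ± 31.99 at d105 (34.0 to 138, n = 18) and 282 ± 169 at d95 (1.33 to 736, n = 14), while the WTNT mice had 71.6 ± 42.4 (n = 5). Its log2 difference was -1.39 (limma adjusted p 0.0208). The 736 is from the shallow d95 NR replicate 1, without which the d95 mean was 247 ± 111 (n = 13) and the log2 difference -1.29 (limma adjusted p 0.0418). The call was lost without d105 PTX replicate 1 (-1.26, limma adjusted p 0.0711), by reads (-0.85, 0.191) and with a pseudocount of 1 in place of 10 CPM (-1.33, 0.234). In 13 of the 14 d95 libraries it was above the d105 range, and 1 PTX library of d95 had the lowest value of all.

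The CASST clonotype with TRBJ2-7, whose form in 10 libraries is printed above, had 19.8 ± 25.3 at d105 and 118 ± 174 at d95, and was found in 12 of 18 and 13 of 14 libraries (log2 difference -1.98, limma adjusted p 0.0110). Its largest value, 696, came from the shallow d95 NR replicate 1, where it was 131 reads in 1 row. Without that library the d95 mean was 73.7 ± 53.2 (n = 13) and the log2 difference -1.69 (limma adjusted p 0.0311). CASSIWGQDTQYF was higher at d105, the common direction among called clonotypes of all V segments, with 31.6 ± 26.02 against 12.5 ± 16.6 at d95. It was found in 16 of 18 and 7 of 14 libraries (log2 difference 1.12, limma adjusted p 0.0417). Without d105 PTX replicate 2, which left 1 PTX mouse at d105, the log2 difference was 0.88. In PLX+PTX mice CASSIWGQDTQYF was lower at d105 (24.09 ± 15.65, n = 6) than at d95 (39.26 ± 8.24, n = 3), and higher at d105 in each other treatment group. It was called in 13 of the 32 fits that left out 1 library, and not in that without the shallow library (adjusted p 0.0572). The printed forms show that the first has a V end trimmed by a few bases and a long D stretch, and the second a trimmed V end and 7 bases between V and J. The number called was 5 with a pseudocount of 1 in place of 10 CPM, 7 by reads and 1 among clonotypes found in at least 80% of libraries, and between 2 and 5 with 1 library left out, 5 being without d95 PLX+PTX+aPD-1_R replicate 1.

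No TRBV19 clonotype held more than 0.1% of a library's normalized count except in 1 library. That was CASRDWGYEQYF in the shallow d95 NR replicate 1, with 0.126% of the normalized count and 238 reads, 0.263% of reads (95% Wilson interval 0.231% to 0.298%). That library had 90 rows of all V segments at or above 0.1%, 1 of them TRBV19, where each other library had 0 to 12 such rows. Rows of that size were therefore rare with any V segment outside the shallow library. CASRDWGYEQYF was found in 26 libraries in all. The largest TRBV19 clonotypes of the other groups held 0.0146% in PTX at d105 (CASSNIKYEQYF) to 0.0865% in WTNT, a clonotype with TRBJ2-3.

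That TRBJ2-3 clonotype, which starts with CASSM, was the largest TRBV19 row in both WTNT libraries that share CDR3s. The same nucleotide form had 2194 reads in replicate 2, 0.124% of its reads (95% Wilson interval 0.119% to 0.130%), and 1464 reads in replicate 5, 0.0877% (0.0833% to 0.0923%). Other nucleotide forms of it had 12, 26 and 130 reads in 3 other d105 libraries, and none was found in the remaining 32. The sequence of the shared form is given because it is the largest of the TRBV19 rows that those libraries share.

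CASSM clonotype with TRBJ2-3, form in WTNT replicates 2 and 5: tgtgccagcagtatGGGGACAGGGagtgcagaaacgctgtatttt

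Clone sizes in reads differed from other V segments by day. The median number of reads per row was 29.5 ± 11.5 for TRBV19 and 18.2 ± 4.32 for other V segments at d105 (n = 23), and 19.6 ± 5.20 and 20.2 ± 5.66 at d95 (n = 14). Rows of at most 2 reads made up 14.9% of TRBV19 rows and 26.2% of the others at d105, and 9.46% and 25.2% at d95. Among the 100 rows with the most reads of a library, 5 to 14 were TRBV19 at d105 and 0 to 39 at d95, but by normalized count the mean was 0.435 at d105 and 0.0714 at d95. TRBV19 rows were thus less frequent among the largest rows by normalized count than by reads. The factor was below 1 with some J segments, such as TRBJ2-7 (0.661) and TRBJ2-2 (0.303), and above 1 with others, such as TRBJ2-3 (1.52).

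Within days, 4 summary measures of the TRBV19 rows showed no called difference between groups: mean CDR3 length, the share of the 10 most abundant rows, the number of rows after thinning to 24428 TRBV19 reads, and the public share. The smallest adjusted p over the 28 within-day tests was 0.229 (exact permutation or permutation over mice, Benjamini-Hochberg over 32 tests). Group sizes limit these tests. The smallest p the exact test allows is 0.1 for PLX+PTX against PTX at d95, 0.0357 for the same groups at d105, and 0.0179 (0.0476 for the thinned rows) for R against NR at d95. The first could not have passed, and the other 2 had little room to pass after adjustment. The value of 0.229 is the CDR3 length of PLX+PTX against PTX at d105, where the 2 groups did not overlap and the unadjusted p was 0.0357, the smallest allowed. For R against NR at d105 the 10 most abundant rows held 2.02% ± 0.43 and 1.899% ± 0.65, and the public share was 5.30% ± 0.49 and 5.60% ± 0.47. At d95 the 10 most abundant rows held 2.57% ± 0.53 in R and 5.86% ± 5.23 in NR, where the shallow library alone had 11.9%.

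Between days all 4 measures were called in MMTV-PyMT mice, with labels permuted within treatment. The mean length was 13.61 ± 0.04 at d105 (n = 18) and 13.52 ± 0.06 at d95 (n = 14), a difference of 0.093 residues (permutation adjusted p 0.00096). By reads it was 0.035 (permutation adjusted p 0.457). The 10 most abundant rows held 2.05% ± 0.55 at d105 and 3.42% ± 2.49 at d95 (permutation adjusted p 0.00896), but after thinning all libraries to the same TRBV19 reads the difference was -0.32 (permutation adjusted p 0.502).

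After that thinning, 4081 ± 1106 TRBV19 rows were left at d105 (n = 18) and 1756 ± 431 at d95 (n = 13, the shallow library having no value), with a permutation adjusted p of 0.00032, the smallest the resamples can give. The public share was 5.51% ± 0.66 at d105 and 6.54% ± 0.58 at d95 (permutation adjusted p 0.0033), and by reads the difference was -0.73 (permutation adjusted p 0.0814). Reads are drawn from amplified DNA, so thinning reads does not equalise the number of cells that entered a library.

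**Figure D5:**
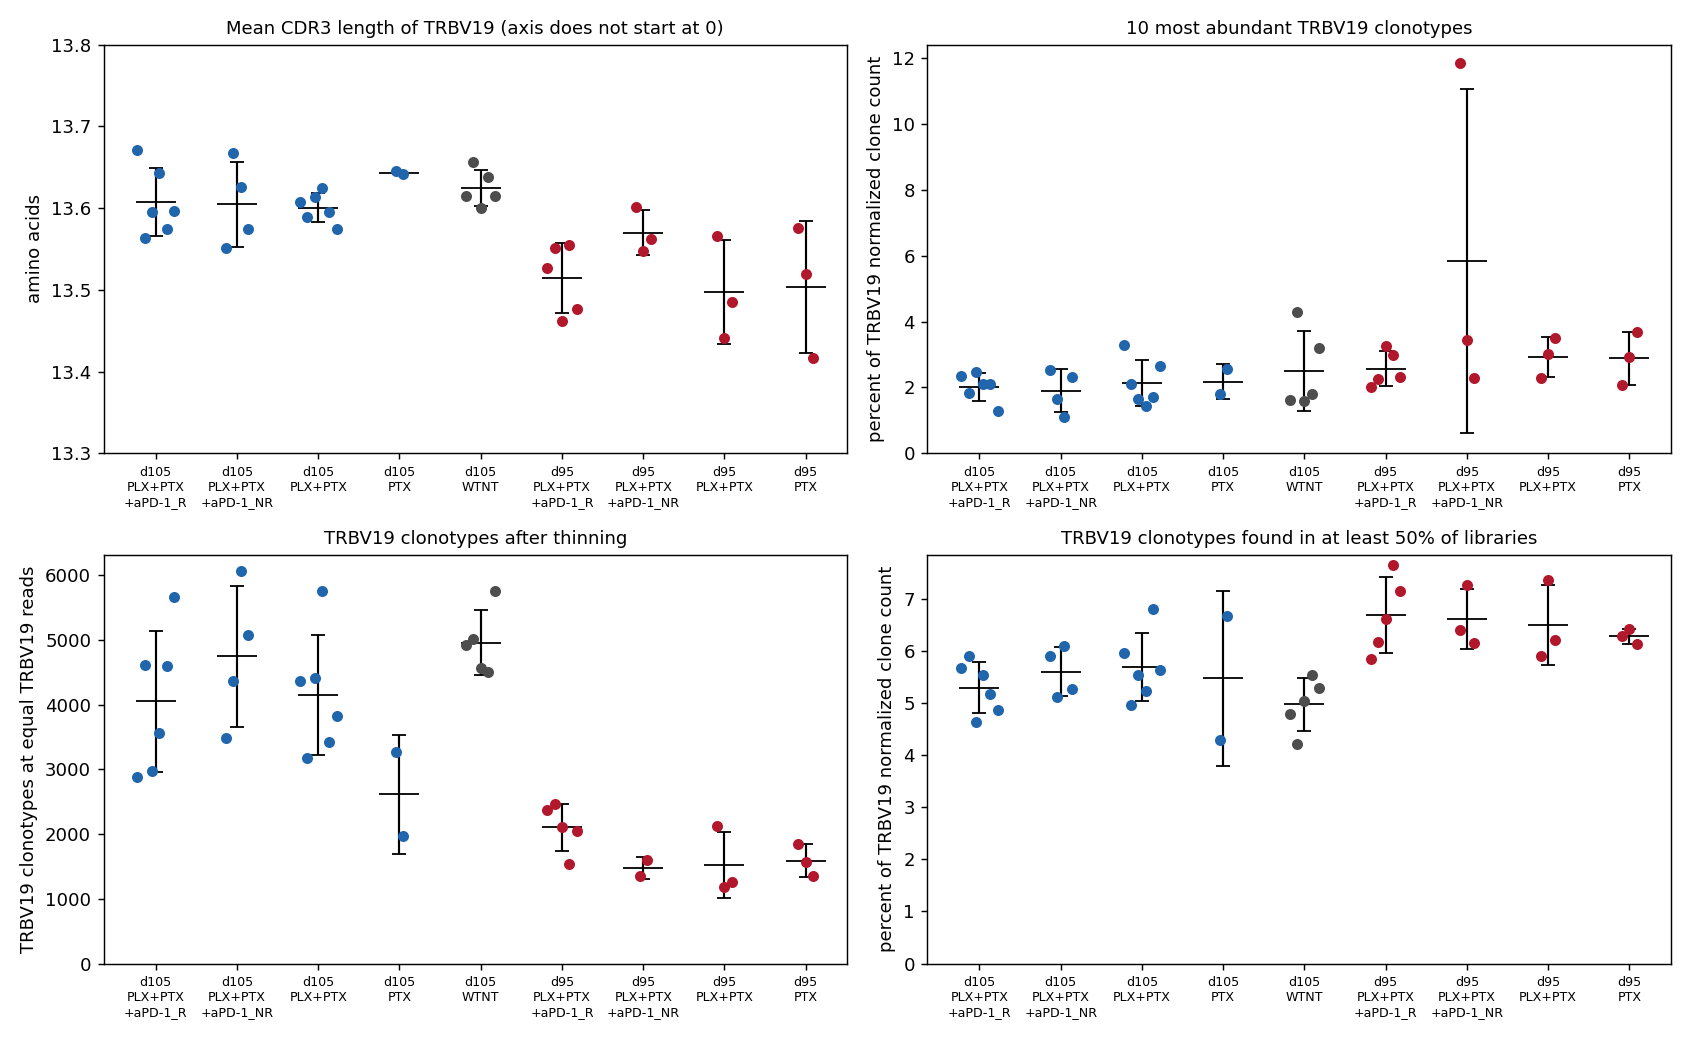
The 4 measures of TRBV19 rows by group, 1 dot per library with a bar at the mean and an error bar of 1 SD: mean CDR3 length (residues), percent in the 10 most abundant rows, rows left after thinning to 24428 TRBV19 reads, and percent in public clonotypes. The d95 NR replicate 1 stands at 11.9% for the 10 most abundant rows and has no thinned value.

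Some TRBV19 sequences also occurred with another V segment. Of the 124088 distinct nucleotide CDR3s of TRBV19, 14327 (11.6%) appeared under another V segment in a different library, and 0 in the same library. At the amino acid level 9.41% ± 3.31 of a library's TRBV19 rows had a CDR3 that another V segment also made in it (1.69% to 14.6%). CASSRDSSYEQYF with TRBJ2-7, for instance, was found with TRBV19 in 3 libraries and with TRBV3 in 33. Only 32 TRBV19 rows listed several V hits, and the scores of those hits were not compared. A CDR3 alone therefore does not name TRBV19, and the counts here rest on the V segment the authors assigned.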

How the data were processed

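Clonotype tables of 37 libraries were analysed. Per the file headers they hold a read count per clonotype and 2 further scores deposited by the authors, the normalized clone count and the nb clone count; the counts are whole reads. Comparing columns showed the normalized clone count to be the read count times a constant per V and J pair. Aligner, build and normalization method: not given in the sources used here. Only productive rows were present, and 1953 TRBV19 rows (1.35%) had a normalized count of 0.

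Shares of 24 TRBV and TRBJ segments (mean at least 0.1%), of V-J pairs within their V segment (at least 0.5%) and of amino acid clonotypes (present in 50% or more of the fitted libraries) were tested on the log2 scale with limma 3.58.1 in R 4.3.3, with pseudocounts of 0.01%, 0.1% and 10 CPM, 1 fit per day and 1 of the 32 MMTV-PyMT libraries, adjusting p-values over all features (Benjamini-Hochberg, 0.05). Normalized scores are not counts, so edgeR 4.0.16 and DESeq2 1.42.0 on reads were alternatives. Contrasts weight groups equally. Scalar measures were tested by exact permutation of mice, or 100000 resamples, and TRBV19 against other V segments by sign permutation within libraries; scripts were tested on simulated data. Libraries have no pairing, and replicate numbers follow accession order.

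The text names TRBV19, its J partners, the segments of the 3 lists, the most and least similar segments, the most widespread, most multiform, called and largest clonotypes, and the smallest p of a comparison. Examples of a CDR3 under another V segment, and the sequence shared by the WTNT libraries, were chosen after their values were seen. The members and lists were chosen with earlier results of these data known.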

Additional observations from a re-analysis of the deposited data

How the results depend on the processing

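No paired analysis was possible because the replicate numbers follow accession order, so mice of different groups share no pairing. Depth limits the d95 libraries most, and 1 of them has no thinned value.

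The TRBV19 share kept its direction and call between days under all alternatives run. The lower share in R over both days (log2 difference -0.34) kept its direction under all of them and lost its call with reads (-0.27), each clonotype counted once (-0.19), no filter (-0.34, adjusted p 0.0664), a centred log ratio (-0.29) and the higher mouse numbers (-0.27). The cause was not tested. Leaving out 1 library gave -0.39 to -0.28, -0.44 to -0.27 for d105 alone and -0.43 to -0.21 for d95 alone. The difference of that effect between days, near 0, was -0.0562 by reads, -0.0174 by nb clone count, -0.15 with each clonotype counted once, -0.0186 by centred log ratio, -0.0642 by edgeR, -0.0697 by DESeq2 and -0.12 to 0.0914 with 1 library left out. For aPD-1 at d95 the difference turned to -0.0112 (counted once) and -0.0674 (centred log ratio), and MMTV-PyMT minus WTNT to 0.0031 with the higher mouse numbers.

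The TRBV19 clonotypes called between days numbered 5 of 154 with a pseudocount of 1 (208 of 2394 over all V segments). They numbered 1 of 4 when found in 80% (7 of 209) and 7 of 154 by reads (154 of 2394). With 1 library left out they numbered 2 to 5.

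By reads, differences became as follows. CDR3 length: -0.0038 (d105 R minus NR), 0.0027 (d95 PLX) and 0.035 (days). Share of the 10 most abundant rows: -0.18 (d105 R minus NR), 0.26 (d105 PLX), 0.032 (MMTV-PyMT minus WTNT) and -0.033 (d95 PLX). Public share: -0.73 (days). Against other V segments: GTG 0.52, GLG -0.076, DWG 1.199, TRBJ1-1 0.13, TRBJ1-4 -1.88, TRBJ1-5 -0.19, TRBJ1-7 -0.0024, TRBJ2-1 -3.58, TRBJ2-2 4.54, TRBJ2-4 -2.33 and TRBJ2-7 11.8 percentage points. Reads leave out the factor of each V and J pair.

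With each clonotype counted once, CDR3 length was 0.0099 for MMTV-PyMT minus WTNT. Public share differences were 0.025 (d105 R minus NR), -0.35 (d105 PLX), -0.014 (d95 R minus NR), -0.26 (d95 aPD-1) and -0.075 (d95 PLX). Against other V segments they were GTG -0.69, DWG 1.197, TRBJ1-1 -1.06, TRBJ1-3 -0.00061, TRBJ1-4 -0.31, TRBJ1-5 -1.16, TRBJ1-7 -0.0033, TRBJ2-1 -0.052, TRBJ2-2 0.92, TRBJ2-4 1.07, TRBJ2-5 0.86 and TRBJ2-7 0.67. The stricter public rule of 80% gave 0.040 (d105) and -0.20 (d95) for R minus NR. The 50 most abundant rows gave 0.17 for MMTV-PyMT minus WTNT. Thinning gave -0.15 (d95 aPD-1), -0.11 (d95 PLX) and -0.32 (days) for the 10 most abundant.

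Leaving out 1 library turned the sign of these uncalled values. CDR3 length ran from -0.015 to 0.023 (d105 R minus NR), -0.0013 to 0.012 (d105 aPD-1) and -0.050 to 0.030 (d95 PLX). The 10 most abundant rows ran from -0.14 to 0.33 (d105 R minus NR), -0.31 to 0.065 (d105 aPD-1), -0.41 to 0.34 (d105 PLX), -0.28 to 1.16 (d95 aPD-1) and -0.38 to 0.43 (d95 PLX). Thinned row numbers ran from -21.1 to 494 (d105 aPD-1) and -365 to 101 (d95 PLX). Public share ran from -0.98 to 1.40 (d105 PLX), -0.16 to 0.40 (d95 R minus NR), -0.13 to 0.60 (d95 aPD-1) and -0.23 to 0.50 (d95 PLX).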
